A study of Caenorhabditis elegans with 30 samples.

Results

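The cytochrome P450 (cyp) genes of Caenorhabditis elegans were followed across 10 groups of whole worms that differed in cultivation temperature, lithium, odour training and exposure to ice. The members were the protein-coding rows whose WormBase symbol begins with cyp followed by a family number, and 74 of the 46690 gene rows shared by both count tables met that rule (19725 of those rows are protein-coding). The rule used names alone and no measured value.

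Wild-type N2 worms, fed on E. coli OP50, gave polyA RNA in 2 experiments, and neither the age of the worms nor the number pooled per library is stated in the sources used here. In the lithium experiment, worms spent the night either on agar with 15 mM LiCl or on plain agar, at 15 °C (which makes worms cold tolerant) or at 20 °C (which leaves them cold sensitive). This gave 4 groups of 3 libraries: lithium at 15 °C, plain agar at 15 °C, lithium at 20 °C and plain agar at 20 °C, with no training and no ice. In the ice experiment, worms were conditioned with the odorant butanone or left naive, and all of them then spent 2 h on ice before RNA extraction. Before the ice they had been kept overnight at 15 °C and then shifted to 20 °C for 2 h, or kept overnight at 15 °C, or kept at 20 °C, so this experiment has 6 groups of 3 libraries. No ice group escaped the ice, so a temperature difference there is a difference between iced worms. The ice libraries carry letters (C, D and H for the shift, B, G and H for 15 °C, A, E and F for 20 °C), and a conditioned and a naive library share each letter.

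Cytochrome P450 enzymes are heme proteins, mostly bound to the endoplasmic reticulum, that insert an oxygen atom into lipids, sterols and foreign compounds with electrons passed on by NADPH-cytochrome P450 reductase. In C. elegans they detoxify xenobiotics, turn polyunsaturated fatty acids into epoxides and hydroxy acids, and build lipids for the eggshell and hormones for developmental decisions. Many of them are made in the intestine, and several are switched on by foreign chemicals.

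The 74 genes fall into 15 numbered families. By family number, 42 were placed in a CYP2-like group (families 14, 33, 34, 35 and 36), 19 in a CYP3-like group (13, 25 and 43), 11 in a CYP4-like group (29, 31, 32, 37 and 42), 1 in the mitochondrial group (cyp-44A1) and 1 (cyp-23A1) in none of these. CYP2 and CYP3 relatives in mammals are best known for drug metabolism, and CYP4 relatives for hydroxylating the ends of fatty acids. Their positions on the ce11 build are uneven, with 41 members on chromosome V, 12 on II, 7 on IV, 7 on X, 6 on III and 1 on I. With neighbours joined when at most 10000 bases separated them, 44 members lay in 12 clusters. The largest cluster held 10 genes, from cyp-35A5 to cyp-34A10 (V:3936326-3972991), and the next held the 8 genes cyp-13A1 to cyp-13A8 (II:9779181-9807569). Tandem copies resemble each other, and reads that match more than a single copy may have been lost or split in the deposited counts, so values of close relatives such as cyp-31A2 and cyp-31A3 are less certain than those of lone genes. In 8 members an exon shares bases with an exon of some other coding gene, which runs on the opposite strand in 7 cases and on the same strand for cyp-44A1, and the strand setting used for counting is not given in the sources used here.

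The libraries held between 10111055 and 27794834 counts in the lithium experiment and between 9873554 and 30054357 in the ice experiment. Levels below are in CPM, a gene's count per 1000000 counts of its library after scaling by the trimmed mean of M values (TMM). Each comparison was tested with edgeR's quasi-likelihood test over all genes that passed its count filter, with Benjamini-Hochberg adjustment and a threshold of 0.05 on the adjusted p. The filter left 12392 genes and 54 of the 74 cyp genes in the lithium experiment, where the 20 others had total counts between 4 and 123 over the 12 libraries. In the ice experiment 69 members were tested between temperatures and 66 between training groups. The common biological coefficient of variation was 0.294 in the lithium experiment and 0.645 between the ice sums, so replicates on ice were much further apart. Markers of intestine, germline, muscle and neurons were detected in each experiment, as whole worms should give.

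The most abundant P450 transcript per kilobase of exon was cyp-35A2, a gene of the xenobiotic-inducible cyp-35A subfamily that has also been tied to intestinal fat storage. It averaged 156.4 CPM per kb over the lithium experiment and 736.7 CPM per kb over the ice experiment, which made up 22.7% and 36.7% of the summed CPM of all 74 members. In the lithium experiment it was followed by cyp-31A2 (65.2 CPM per kb), cyp-35A3 (63.83), cyp-31A5 (47.16) and cyp-31A3 (44.5). CYP-31A2 and CYP-31A3 act with the P450 reductase EMB-8 in making the lipid-rich layer of the eggshell. On ice the order after cyp-35A2 was cyp-35C1 (197.7 CPM per kb), cyp-35A3 (186.1), cyp-33A1 (174.3) and cyp-34A9 (144.7). The experiments used different library kits, so levels in them are set side by side without a test. cyp-44A1, the mitochondrial P450, had 30.57 CPM per kb in the lithium experiment and 28.07 CPM per kb on ice. The spread within groups was wide for the leading gene: cyp-35A2 averaged 112.3 ± 70.4 CPM per kb in lithium 15 °C worms, 134.7 ± 104.4 in plain 15 °C worms, 175.7 ± 90.3 in lithium 20 °C worms and 202.7 ± 128.7 in plain 20 °C worms (SD, n = 3 each), and the ranges of these groups overlapped. That spread includes replicate 2, the lowest library of each group for this gene. Within each replicate number the 15 °C value was below the 20 °C one, on plain agar and under lithium. The order of lithium and plain agar differed between the numbers. cyp-31A2 was tighter, at 81.6 ± 6.69, 55.7 ± 6.38, 81.3 ± 14.3 and 42.2 ± 18.5 CPM per kb in the same 4 groups (SD, n = 3 each).

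Overnight cultivation at 15 °C, set against 20 °C on plain agar, asks what the cold-tolerant state changes without lithium. Of the 54 tested members, 12 were lower at 15 °C and 0 were higher, while 7.77% of all genes tested were called lower, 2.19% higher and 9.97% in either direction. The median log2 fold change of the tested members was -0.79, against -0.07 for all genes tested, and 44 of the 54 had a negative value. The 3 libraries at 15 °C lay below the 3 at 20 °C for 24 of the 54 tested members and above them for 1 (cyp-44A1), where 23.2% of all genes tested were apart in the lower direction and 22.6% in the higher. Among the 24, cyp-14A1 and cyp-13A11 passed the count filter only through plain 20 °C, so their place in that count rests on this selection. The called genes were cyp-14A1, cyp-14A2 and cyp-14A5 (all 3 tested members of family 14), cyp-34A2, cyp-34A8 and cyp-34A9 (all 3 tested members of family 34), cyp-37A1 and cyp-37B1 (both members of family 37), cyp-13A3, cyp-13A4, cyp-32B1 and cyp-33C8. By group, 7 of 26 CYP2-like, 2 of 16 CYP3-like and 3 of 11 CYP4-like genes were called lower.

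**Figure D1:**
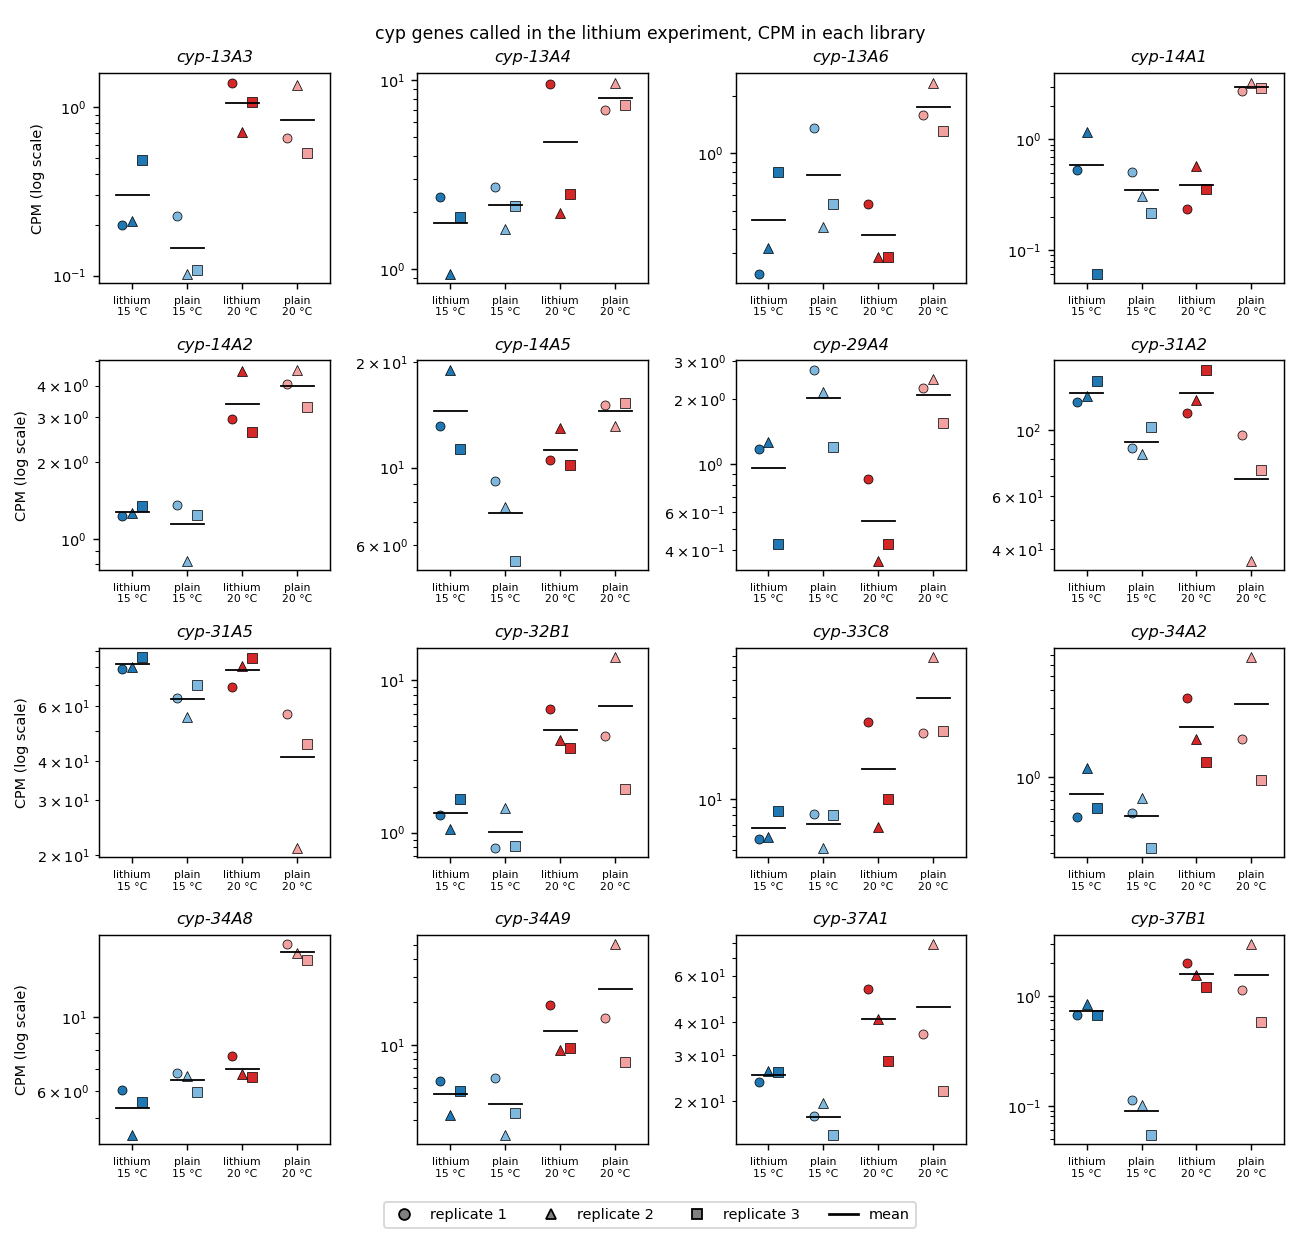
CPM on a log scale in each of the 12 libraries of the lithium experiment for the cyp genes called in at least 1 comparison. Columns of points are lithium 15 °C, plain 15 °C, lithium 20 °C and plain 20 °C, symbols mark the replicate number and bars the mean. The 3 plain 20 °C points of cyp-34A8, at 14.9 to 16.6 CPM, stand above the 9 others, and replicate 2 of plain 20 °C is the highest point for cyp-32B1, cyp-33C8, cyp-34A2, cyp-34A9, cyp-37A1 and cyp-37B1.

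In family 34, cyp-34A8 (V:3964797-3967823) had 6.81, 6.68 and 5.97 CPM at 15 °C, against 16.6, 15.7 and 14.9 CPM at 20 °C. The groups did not overlap, the replicates lay close together, and the log2 fold change was -1.28 (SE 0.20, adjusted p = 0.018 by edgeR). Its neighbour cyp-34A9, a gene known to respond to the insulin-pathway transcription factor DAF-16, had 5.90, 2.37 and 3.37 CPM at 15 °C, against 15.4, 51.0 and 7.63 CPM at 20 °C. There too the groups did not overlap (log2 fold change -2.65, SE 0.62, adjusted p = 0.034 by edgeR), but replicate 2 of plain 20 °C set much of the size, and without it the value was -1.55. cyp-34A2, which lies elsewhere on chromosome V (V:15288777-15291095), had 0.568, 0.720 and 0.326 CPM at 15 °C, against 1.86, 6.81 and 0.966 CPM at 20 °C. Its log2 fold change was -2.59 (SE 0.715, adjusted p = 0.045 by edgeR), or -1.43 without that same library.

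In family 14, whose members answer to xenobiotics in worms, cyp-14A1 (X:13265041-13267355) had 0.511, 0.308 and 0.217 CPM at 15 °C, against 2.73, 3.26 and 2.95 CPM at 20 °C. These rest on 16 counts over the 3 libraries at 15 °C and 157 at 20 °C, and the log2 fold change was -3.07 (SE 0.66, adjusted p = 0.029 by edgeR). The gene passed the count filter only through plain 20 °C, where it was high, so a lower call against that group rests on this selection. cyp-14A2, the next gene on the X chromosome, had 1.36, 0.822 and 1.25 CPM at 15 °C, against 4.04, 4.61 and 3.29 CPM at 20 °C (log2 fold change -1.77, SE 0.32, adjusted p = 0.026 by edgeR). cyp-14A5, on chromosome V, had 9.14, 7.71 and 5.43 CPM at 15 °C, against 15.1, 13.1 and 15.3 CPM at 20 °C, with the smallest called change of the 12 (log2 fold change -0.97, SE 0.26, adjusted p = 0.041 by edgeR). In this family the 15 °C and 20 °C libraries were apart for each of the 3 genes, and replicate 2 of plain 20 °C did not stand out.

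The CYP4-like gene cyp-37B1 (V:16278116-16280616) had the largest change, with 0.114, 0.103 and 0.0543 CPM at 15 °C, against 1.15, 2.98 and 0.580 CPM at 20 °C. The 15 °C libraries held 2, 1 and 1 counts, so the fitted log2 fold change of -4.02 (SE 0.69, adjusted p = 0.024 by edgeR) leans on the prior count, and it was -3.18 without replicate 2 of plain 20 °C. The ratio of summed counts per summed library total was 0.0527, with an exact 95% interval of 0.014 to 0.141 that covers counting error only. cyp-37A1 had 17.5, 19.6 and 14.9 CPM at 15 °C, against 35.9, 79.1 and 21.8 CPM at 20 °C (log2 fold change -1.39, SE 0.38, adjusted p = 0.045 by edgeR), and -0.74 without replicate 2 of plain 20 °C. Both family 37 genes overlap an exon of a gene on the opposite strand, cyp-37A1 over 28 bases and cyp-37B1 over 69 bases. cyp-32B1 (V:2197997-2201415) had 0.795, 1.44 and 0.814 CPM at 15 °C, against 4.31, 14.1 and 1.93 CPM at 20 °C (log2 fold change -2.76, SE 0.63, adjusted p = 0.032 by edgeR), and -1.66 without that library. The 20 °C libraries of these 3 genes were all above the 15 °C ones.

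cyp-33C8 (V:3800782-3803542), a CYP2-like gene, had 8.18, 5.14 and 8.03 CPM at 15 °C, against 24.5, 68.6 and 25 CPM at 20 °C (log2 fold change -2.46, SE 0.53, adjusted p = 0.029 by edgeR), and -1.79 without replicate 2 of plain 20 °C. It was the only called gene among the 11 tested members of family 33, the largest family, though 9 of those 11 values were negative. In the cyp-13A cluster on chromosome II, cyp-13A4 had 2.73, 1.65 and 2.17 CPM at 15 °C, against 6.93, 9.71 and 7.44 CPM at 20 °C (log2 fold change -1.86, SE 0.54, adjusted p = 0.049 by edgeR). cyp-13A3 had 4, 1 and 2 counts at 15 °C, against 12, 19 and 11 counts at 20 °C (log2 fold change -2.40, SE 0.60, adjusted p = 0.037 by edgeR), a ratio of 0.165 per library total with an exact 95% counting interval of 0.0624 to 0.37. Neighbouring genes went the same way without passing the test. cyp-13A5, the most abundant of the cluster, had 35.9, 2.88 and 16 CPM at 15 °C, against 154, 80.7 and 95.2 CPM at 20 °C, with no overlap (log2 fold change -2.57, SE 0.93, adjusted p = 0.076 by edgeR). cyp-13A7, which rifampicin induces in worms, had 2.04, 0.103 and 1.30 CPM at 15 °C, against 4.59, 5.82 and 3.04 CPM at 20 °C (log2 fold change -1.89, SE 0.62, adjusted p = 0.062 by edgeR).

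The genes of the naming list given next did not pass. Others of that list, cyp-14A1, cyp-34A9, cyp-33C8, cyp-32B1, cyp-37A1 and cyp-37B1, were called lower, as given above. cyp-13A12, which shapes the locomotory answer to reoxygenation, had 3.24, 0.720 and 2.17 CPM at 15 °C, against 7.97, 4.61 and 5.94 CPM at 20 °C (log2 fold change -1.56, SE 0.60, adjusted p = 0.086 by edgeR). Both cyp-29A3 and cyp-33E2 act on eicosapentaenoic acid in eicosanoid production. The log2 fold change was -0.82 for cyp-29A3 (SE 0.31, adjusted p = 0.085) and 0.07 for cyp-33E2 (SE 0.24, adjusted p = 0.83 by edgeR). cyp-36A1, which works downstream of HIF-1 in egg laying and stress resistance, had -0.36 (SE 0.40, adjusted p = 0.49 by edgeR). Among the other genes of the naming list, cyp-42A1 had -1.39 (SE 0.50), cyp-43A1 had -1.28 (SE 0.46), cyp-32A1 had -0.61 (SE 0.38), cyp-25A2 had -0.26 (SE 0.37), cyp-29A2 had 0.27 (SE 0.27) and cyp-44A1 had 0.40 (SE 0.24), with adjusted p between 0.074 and 0.6 by edgeR. The 3 genes of family 31 had positive values: cyp-31A2, cyp-31A3 and cyp-31A5 had 0.40 (SE 0.27), 0.52 (SE 0.24) and 0.62 (SE 0.27), with adjusted p of 0.27, 0.12 and 0.11. Of family 35 none of the 8 tested genes passed, with cyp-35A2 at -0.59 (SE 0.76), cyp-35A3 at -0.61 (SE 1.35), cyp-35A5 at -0.32 (SE 0.61), cyp-35B1 at -0.54 (SE 0.66) and cyp-35C1 at -1.05 (SE 0.62). For cyp-35A2, cyp-35A3, cyp-35A5 and cyp-35C1 replicate 2 was the lowest library of each group, and these SE include that spread. With the replicate number as a block cyp-35C1 was called lower, as given in the closing section.

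**Figure D2:**
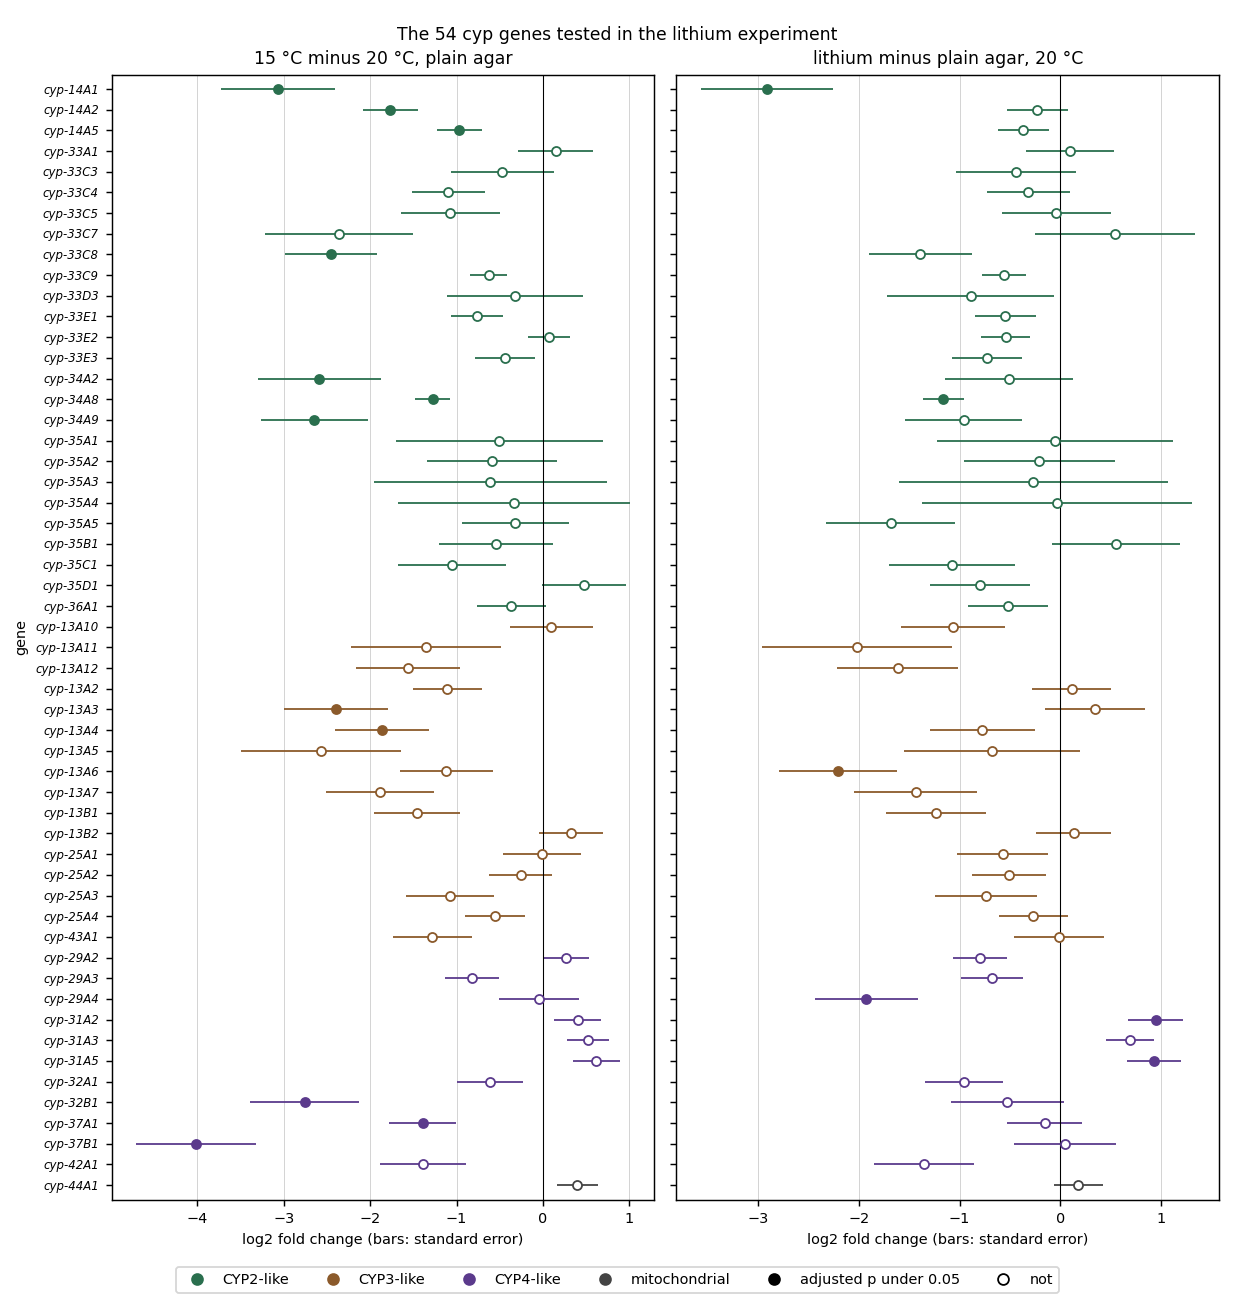
Log2 fold change with its standard error for the 54 tested cyp genes, at 15 °C minus 20 °C on plain agar (left) and for lithium minus plain agar at 20 °C (right), ordered by P450 group. Filled points passed an adjusted p of 0.05: 12 negative ones on the left, and 4 negative and 2 positive ones on the right, the positive ones being cyp-31A2 and cyp-31A5.

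The number of calls depended on which libraries were kept. With replicate 1, 2 or 3 of plain 15 °C left out the count of members called was 3, 0 or 0, and with replicate 1, 2 or 3 of plain 20 °C left out it was 18, 4 or 18, while no called value changed sign. Calls over all genes moved in the same way, with 199, 0 and 0 genes for the first 3 cases and 2418, 69 and 2828 for the others, against 1235 with all libraries. The members' median was -1.29 without replicate 1 of plain 15 °C, and between -0.89 and -0.71 in the other 5 cases. Replicate 2 of plain 20 °C also stood apart in epidermis and moulting markers, whose summed level was 44.6 to 102.9 CPM in plain 15 °C worms and 82.3 to 497.9 CPM in plain 20 °C worms, with the highest value in that library. Of the 12 listed moulting markers 8 were tested, all 8 had a negative value, 1 was called lower and none was at 0 in either group. Intestine markers were called lower in 2 of 12 cases, with sums of 53780 to 96740 CPM in plain 15 °C worms and 82520 to 108000 CPM in plain 20 °C worms. Neuron markers were negative in 8 of 8 cases, 5 of them without overlap and 1 called lower, with sums of 208.6 to 234.7 CPM in plain 15 °C worms and 286.9 to 510.9 CPM in plain 20 °C worms. Germline and oocyte markers, like the genes of family 31, were positive in 12 of 12 cases, 11 of them without overlap and 0 called, with sums of 9544 to 9794 CPM in plain 15 °C worms and 3537 to 8204 CPM in plain 20 °C worms. Replicate 2 of plain 20 °C held the highest neuron sum and the lowest germline sum of its group. Replicates 1 and 3 had 288.2 and 286.9 CPM for neurons and 7473 and 8204 CPM for germline. Body wall muscle markers summed to 4180 CPM in replicate 2 of plain 20 °C, against 1837 and 2913 CPM in replicates 1 and 3. No intestine, neuron or germline marker was at 0 in either group. The part of any of these tissues in the P450 result was not tested, and in whole worms fewer cells of a type cannot be told apart from less RNA per cell.

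Under lithium the same temperature comparison gave no calls. At 15 °C with lithium, set against 20 °C with lithium, 0 of 54 members passed edgeR's test, as did 0 of all 12392 genes (0%), while 12 members had an unadjusted p under 0.05 (9 lower, 3 higher), where 11.7% of all genes did, and DESeq2 called 1. cyp-14A2 was closest, with 1.23, 1.27 and 1.34 CPM at 15 °C under lithium, against 2.95, 4.56 and 2.63 CPM at 20 °C under lithium (log2 fold change -1.40, SE 0.32, adjusted p = 0.29 by edgeR). These groups did not overlap, nor did they for cyp-34A9, with 5.64, 3.27 and 4.76 CPM at 15 °C, against 19.1, 9.34 and 9.53 CPM at 20 °C (log2 fold change -1.45, SE 0.60, adjusted p = 0.4 by edgeR). For cyp-32B1 the log2 fold change under lithium was -1.79 (SE 0.60), with 1.30, 1.06 and 1.65 CPM at 15 °C and 6.44, 4.07 and 3.56 CPM at 20 °C, and for cyp-37B1 it was -1.15 (SE 0.53). In all 10 tested members were lower and 3 higher without overlap, where 10.5% of all genes tested were lower and 9.45% higher. The gene cyp-14A1, called lower at 15 °C on plain agar, had 0.534, 1.16 and 0.0611 CPM at 15 °C, against 0.233, 0.571 and 0.356 CPM at 20 °C under lithium, and those ranges overlap. The highest value of the naming list was 0.76 for cyp-29A2 (SE 0.27, adjusted p = 0.36 by edgeR).

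Lithium at 20 °C, set against plain agar at 20 °C, asks what lithium does to cold-sensitive worms. Here 4 of the 54 tested members were lower and 2 were higher, while 6.33% of all genes tested were called lower, 5.91% higher and 12.2% in either direction, so the share of called P450 genes was near that of all genes. The lower genes were cyp-14A1, cyp-34A8, cyp-13A6 and cyp-29A4, and the higher ones cyp-31A2 and cyp-31A5. The median log2 fold change of the tested members was -0.53, against -0.07 for all genes tested. This comparison shares its plain 20 °C libraries with the temperature comparison on plain agar, so values in both are not independent.

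cyp-14A1 had 0.233, 0.571 and 0.356 CPM in lithium worms at 20 °C, against 2.73, 3.26 and 2.95 CPM in plain worms at 20 °C (log2 fold change -2.91, SE 0.655, adjusted p = 0.027 by edgeR). cyp-34A8 had 7.68, 6.78 and 6.62 CPM in lithium worms at 20 °C, against 16.6, 15.7 and 14.9 CPM in plain worms at 20 °C (log2 fold change -1.16, SE 0.20, adjusted p = 0.018 by edgeR). For both genes the plain 20 °C libraries stood above those of the 3 other groups, which for cyp-14A1 rests on the selection given below. Less abundant members were also apart: cyp-13A6, of the chromosome II cluster, had 7, 4 and 4 counts with lithium, against 29, 33 and 27 counts without (log2 fold change -2.21, SE 0.59, adjusted p = 0.036 by edgeR). cyp-29A4, a CYP4-like gene, had 11, 5 and 6 counts with lithium, against 41, 35 and 32 counts without (log2 fold change -1.93, SE 0.51, adjusted p = 0.035 by edgeR). cyp-14A1 and cyp-13A6 passed the count filter only through plain 20 °C, the group where they were high. Their lower calls against that group rest on this selection.

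cyp-31A2 (IV:11403961-11406091) had 114, 125 and 159 CPM in lithium worms at 20 °C, against 96.3, 36.5 and 73.5 CPM in plain worms at 20 °C (log2 fold change 0.95, SE 0.27, adjusted p = 0.043 by edgeR). cyp-31A5 (IV:13401289-13403842) had 68.9, 80.7 and 85.4 CPM with lithium, against 56.7, 21.1 and 45.3 CPM without (log2 fold change 0.93, SE 0.27, adjusted p = 0.044 by edgeR). Its exons overlap a gene on the opposite strand over 101 bases. cyp-31A3 had 70.0, 79.9 and 96.2 CPM with lithium, against 68.5, 30.2 and 53.4 CPM without, again with no overlap, but did not pass (log2 fold change 0.69, SE 0.24, adjusted p = 0.071 by edgeR). Without replicate 2 of plain 20 °C, the lowest library for each of these genes, the values of cyp-31A2 and cyp-31A5 were 0.65 and 0.62. Germline and oocyte markers moved with them: 12 of 12 had a positive value and 7 were called higher, with sums of 11960 to 13330 CPM in lithium 20 °C worms and 3537 to 8204 CPM in plain 20 °C worms, and none was at 0 in either group. The lowest of these plain 20 °C sums was again replicate 2, with 7473 and 8204 CPM in replicates 1 and 3. The part of germline and oocyte markers in the change of family 31 was not tested. Of the 8 tested moulting markers 7 were called lower with lithium, with sums of 44.9 to 71.4 CPM in lithium 20 °C worms and 82.3 to 497.9 CPM in plain 20 °C worms, and rol-6 and sqt-1 were at 0 in lithium 20 °C worms. The highest moulting sum of plain 20 °C was replicate 2.

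Several other members did not pass although their groups did not overlap. cyp-13A12 had 3.57, 0.642 and 1.85 CPM with lithium, against 7.97, 4.61 and 5.94 CPM without (log2 fold change -1.62, SE 0.60, adjusted p = 0.088 by edgeR). cyp-29A2 had 6.13, 8.34 and 9.04 CPM with lithium, against 16.6, 9.71 and 14.6 CPM without (log2 fold change -0.80, SE 0.27, adjusted p = 0.067 by edgeR). In all, 13 of the 54 tested members were lower and 3 higher without overlap, where 15.1% of all genes tested were lower and 18.4% higher without overlap. The 13 include cyp-14A1, cyp-13A6 and cyp-13A11, which passed the count filter only through plain 20 °C. Genes called lower at 15 °C on plain agar did not all have large lithium values at 20 °C: cyp-14A2 had -0.23 (SE 0.30), cyp-37A1 had -0.15 (SE 0.37), cyp-37B1 had 0.05 (SE 0.51) and cyp-13A3 had 0.34 (SE 0.49). cyp-33C8 had -1.39 (SE 0.51, adjusted p = 0.084), cyp-34A9 had -0.96 (SE 0.58, adjusted p = 0.26) and cyp-32B1 had -0.53 (SE 0.56, adjusted p = 0.53 by edgeR). In family 35 the lithium value was -1.69 for cyp-35A5 (SE 0.64, adjusted p = 0.091), -1.08 for cyp-35C1 (SE 0.62, adjusted p = 0.24), -0.21 for cyp-35A2 (SE 0.75), -0.27 for cyp-35A3 (SE 1.34) and 0.55 for cyp-35B1 (SE 0.64), with adjusted p of 0.56 to 0.91 for the last 3 by edgeR. The remaining tested genes of the naming list ran between -1.44 for cyp-13A7 (SE 0.61) and 0.18 for cyp-44A1 (SE 0.24), with adjusted p of 0.084 or more by edgeR. Leaving out a lithium 20 °C library gave 0 calls in each of 3 cases, and leaving out replicate 1, 2 or 3 of plain 20 °C gave 9, 2 or 5. Over all genes the same cases gave 32, 5 and 43 calls without lithium replicate 1, 2 or 3, and 2855, 422 and 1244 without plain replicate 1, 2 or 3, against 1516 with all libraries.

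Lithium at 15 °C, set against plain agar at 15 °C, gave 0 of 54 calls by edgeR's test, with 0.387% of all genes tested called (0.161% higher and 0.226% lower). An unadjusted p under 0.05 was found for 3 members, where 16.4% of all genes had it, and DESeq2 called 1 member. cyp-37B1 had 20, 8 and 11 counts in lithium worms at 15 °C, against 2, 1 and 1 counts in plain worms at 15 °C, and its fitted log2 fold change of 2.92 (SE 0.72) came with an adjusted p of 0.11 by edgeR. cyp-14A5 had 13.1, 19 and 11.3 CPM with lithium, against 9.14, 7.71 and 5.43 CPM without (log2 fold change 0.96, SE 0.26, adjusted p = 0.14 by edgeR). For both genes the lithium libraries were above the plain ones without overlap, as they were for 8 of the 54 tested members, where 17.8% of all genes tested were apart in that direction. No tested member was lower without overlap, where 13.3% of all genes tested were. At 15 °C the lithium value of cyp-14A1 was 0.63 (SE 0.71) and that of cyp-34A8 was -0.27 (SE 0.20), and the lowest among the naming list was -1.25 for cyp-35A5 (SE 0.63, adjusted p = 0.34 by edgeR).

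Whether the lithium difference itself differed between 15 °C and 20 °C was tested as an interaction, the lithium difference at 15 °C minus that at 20 °C. None of the 54 members passed edgeR's test, nor did any of the 12392 genes (0%), with 6 members at an unadjusted p under 0.05, where 10.2% of all genes were under it, and none called by DESeq2. The estimates were 3.54 for cyp-14A1 (SE 0.96), 2.87 for cyp-37B1 (SE 0.89), 1.33 for cyp-14A5 (SE 0.36) and 0.90 for cyp-34A8 (SE 0.29), each with an adjusted p of 0.48. So for cyp-14A1 and cyp-34A8, called with lithium at 20 °C and not at 15 °C, the difference between temperatures did not itself pass. The estimate of cyp-14A1 also rests on its passing the count filter only through plain 20 °C.

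A separate pattern ran through replicate numbers. cyp-35A2, cyp-35A3, cyp-35A4, cyp-35A5 and cyp-35C1, with cyp-35A1, cyp-13A5, cyp-13A11, cyp-13A12 and cyp-33D3, were lowest in replicate 2 of each of the 4 groups, 10 of the 54 tested members, while 3 members were highest in replicate 2 of each group. The same share over all genes tested is not given here, so the pattern cannot be called particular to P450 genes. cyp-35A3 had 92.1, 4.33 and 78.3 CPM in replicates 1, 2 and 3 of lithium 15 °C, 197, 4.01 and 72.3 CPM in those of plain 15 °C, 239, 16.2 and 93.0 CPM in those of lithium 20 °C and 306, 8.72 and 104 CPM in those of plain 20 °C. The mean of replicates 1 and 3 was 19.7, 33.7, 10.2 and 23.5 times the value of replicate 2 in these 4 groups. For cyp-35A2 the same ratio was 4.94, 6.14, 2.83 and 4.28, and for cyp-35C1 it was 2.58, 2.90, 1.91 and 4.79. cyp-35A4 had 0 counts in replicate 2 of plain 15 °C, against 451 and 225 counts in replicates 1 and 3. The SE of the log2 fold change between 15 °C and 20 °C on plain agar was 1.35 for cyp-35A3 and 1.34 for cyp-35A4, and neither gene passed. Summed intestine markers had 82130, 44090 and 73840 CPM in replicates 1, 2 and 3 of lithium 15 °C and 82520, 106300 and 108000 CPM in those of plain 20 °C. The part of the intestine in this pattern was not tested. The labels do not say what a replicate number marks.

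**Figure D3:**
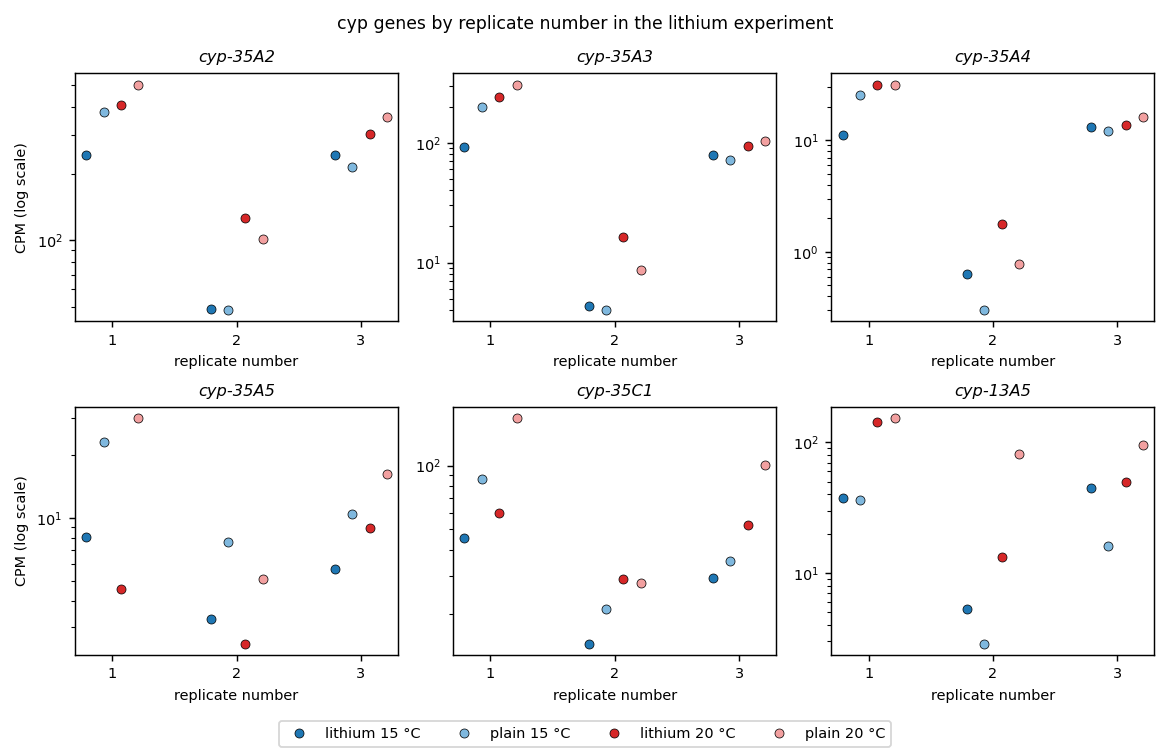
CPM on a log scale by replicate number for 5 genes of family 35 and cyp-13A5, with the 4 groups of the lithium experiment side by side within each number (lithium 15 °C, plain 15 °C, lithium 20 °C, plain 20 °C). Replicate 2 is the lowest point of each group, and the plain 15 °C replicate 2 library, with 0 counts for cyp-35A4, is drawn at the foot of that panel.

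On ice, the conditioned and naive libraries of a letter were summed, which gave 9 sums, 3 per temperature. At 15 °C, set against 20 °C, 0 of 69 tested members and 0% of 15412 genes passed edgeR's test, 9 members had an unadjusted p under 0.05, all higher at 15 °C, as did 12.6% of all genes in either direction, and DESeq2 called 0. The median log2 fold change was 1.16 for the tested members and 0.14 for all genes tested, and with median-of-ratios scaling 1.06 and 0.03, so the members' median stood above that of all genes under either scaling. It was 0.77 without letter B of 15 °C and 1.602 without letter G. Of the 69 values 55 were positive, including 15 of 15 in family 33 and 12 of 13 in family 13, while the 3 genes of family 31 were negative.

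For several members the letters of a temperature were far apart. cyp-34A9 had 991.8, 14.43 and 416.4 CPM in letters B, G and H at 15 °C, against 98.59, 2.544 and 20.20 CPM in letters A, E and F at 20 °C. Letters B and H were above the 20 °C sums and letter G was among them, and the log2 fold change of 3.55 did not pass. cyp-35B1, a CYP2-like gene in the same chromosome V cluster, had 166, 4.79 and 15.7 CPM at 15 °C, against 10.5, 0.336 and 2.28 CPM at 20 °C (log2 fold change 3.83, SE 1.52, adjusted p = 0.39 by edgeR). cyp-32B1 had 200, 2.82 and 123 CPM at 15 °C, against 31.3, 1.58 and 5.61 CPM at 20 °C (log2 fold change 3.08). cyp-37B1 had 136, 0.186 and 40.6 CPM at 15 °C, against 21.2, 0.0960 and 0.355 CPM at 20 °C (log2 fold change 3.03). In these 4 genes letter B was the highest and letter G the lowest sum at 15 °C, and letter E the lowest at 20 °C.

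A few members were apart at every letter. cyp-25A3 had 5.32, 2.19 and 2.64 CPM at 15 °C, against 1.39, 0.816 and 1.02 CPM at 20 °C (log2 fold change 1.65, SE 0.57, adjusted p = 0.39 by edgeR). cyp-42A1 had 4.24, 1.28 and 3.17 CPM at 15 °C, against 0.713, 0.816 and 1.15 CPM at 20 °C (log2 fold change 1.69, SE 0.66, adjusted p = 0.39 by edgeR). cyp-29A2 had 62.0, 37.4 and 77.9 CPM at 15 °C, against 33.1, 8.16 and 37.3 CPM at 20 °C (log2 fold change 1.17, SE 0.55, adjusted p = 0.39 by edgeR). In all 8 tested members were higher and 1, cyp-31A2, lower without overlap, where 7.86% of all genes tested were higher and 2.47% lower. The ranges of the most abundant gene, cyp-35A2, overlapped in part, with 936.9, 1668 and 1655 CPM at 15 °C, against 1087, 398.8 and 1483 CPM at 20 °C (log2 fold change 0.52). The lowest value of the naming list was -1.28 for cyp-14A1 (SE 0.82, adjusted p = 0.48 by edgeR).

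Of the other abundant genes, cyp-35C1 had 125, 370 and 237 CPM at 15 °C, against 561, 72.7 and 503 CPM at 20 °C, and cyp-33A1 had 1140, 222.6 and 136.5 CPM at 15 °C, against 209.5, 8.544 and 56.09 CPM at 20 °C. Letter E, the shallowest pair of libraries, was the lowest of the 9 sums for 45 of the 69 tested members, and letter B of 15 °C the highest for 27. Marker sums also varied by letter: intestine markers had 43730 to 254700 CPM at 15 °C and 19820 to 203000 CPM at 20 °C, moulting markers 20.2 to 155.6 CPM at 15 °C and 13.6 to 28.6 CPM at 20 °C, and germline markers 4604 to 13860 CPM at 15 °C and 9242 to 14480 CPM at 20 °C. In each list 12 of 12 markers were measured and none was at 0 in a group, and their part in the P450 values was not tested.

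**Figure D4:**
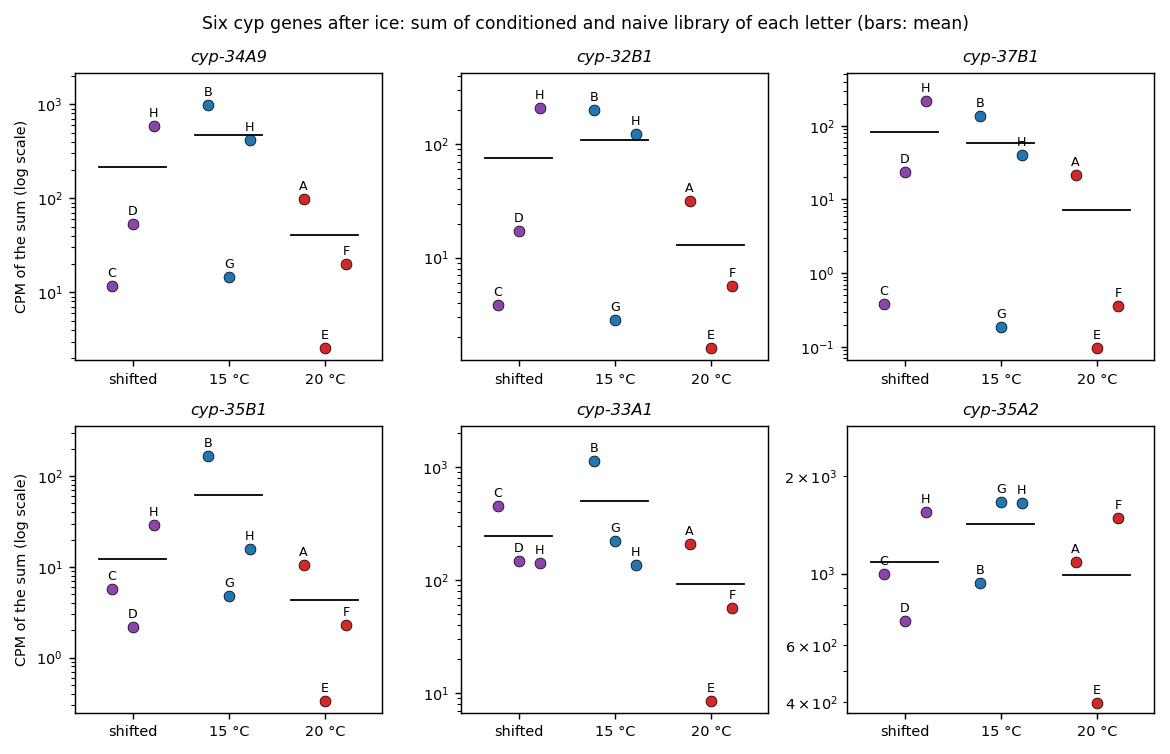
CPM on a log scale of the sum of the conditioned and the naive library of each letter for 6 cyp genes after 2 h on ice, with worms shifted to 20 °C, kept at 15 °C and kept at 20 °C from left to right, letters beside the points and bars for the mean. Within 15 °C, cyp-34A9 runs from 14.43 CPM in letter G to 991.8 CPM in letter B, and the ranges of cyp-35A2 overlap in part.

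Of the 54 members tested in both experiments, 35 had a negative value for 15 °C against 20 °C on plain agar and a positive one on ice, 9 were negative in both, 7 positive in both and 3 positive on plain agar alone. Of the 12 called lower on plain agar, 9 had a positive value on ice. That share was no higher than among all 44 members negative on plain agar, of which 35 were positive on ice. None was apart without overlap in opposite directions. The experiments differ in ice, training, library kit and letters, and these cannot be told apart here.

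The 2 h shift to 20 °C, meant to undo the cold tolerance gained overnight, was set against staying at 15 °C. None of the 69 members passed edgeR's test, as with all genes (0%), and DESeq2 called 0. An unadjusted p under 0.05 was found for 1 member, where 3.32% of all genes had it. That gene, cyp-35D1, had 6.20, 2.21 and 3.87 CPM in letters C, D and H after the shift, against 7.86, 19.3 and 10.8 CPM in letters B, G and H at 15 °C (log2 fold change -1.63, SE 0.64, adjusted p = 1 by edgeR). Letter H occurs in both groups. There cyp-34A9 had 583.9 CPM in letter H after the shift and 416.4 CPM in letter H at 15 °C, cyp-32B1 had 207 CPM after the shift and 123 CPM at 15 °C, and cyp-35A2 had 1550 CPM after the shift and 1655 CPM at 15 °C, while cyp-37B1 had 220 CPM after the shift and 40.6 CPM at 15 °C. Without overlap 2 tested members (cyp-13A4 and cyp-34A8) were higher and 1 (cyp-35D1) lower, where 2.03% of all genes tested were higher and 1.34% lower. The naming list ran from -2.39 for cyp-14A3 (SE 1.55) to 0.75 for cyp-14A1 (SE 0.81), with adjusted p of 1 by edgeR. The median log2 fold change was -0.38 for the tested members and -0.09 for all genes. The members' median depended on single letters, at -0.05 without letter B of 15 °C, -0.12 without shifted letter D, -0.25 without shifted letter C, -0.64 without letter G of 15 °C and -0.93 without shifted letter H.

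Set against constant 20 °C, the shifted worms gave 0 calls among the 69 members and 0% of all genes by edgeR's test, with 5 members at an unadjusted p under 0.05, all higher, where 12% of all genes were under it, and 0 called by DESeq2. The median was 0.63 for the tested members and 0.04 for all genes, but the members' median was -0.05 without shifted letter H and 0.37 without letter E of 20 °C. cyp-13A10 had 2.96, 2.55 and 4.34 CPM after the shift, against 0.990, 0.672 and 1.80 CPM at 20 °C (log2 fold change 1.496, SE 0.56, adjusted p = 0.32 by edgeR). cyp-13A2 had 20.9, 15.6 and 19.7 CPM after the shift, against 5.35, 1.39 and 12.9 CPM at 20 °C (log2 fold change 1.51, SE 0.68, adjusted p = 0.41 by edgeR). For these genes the shifted sums lay above the 20 °C sums, as for 9 members in all, where 11.2% of all genes tested did so. The 3 genes of family 31 lay below without overlap, as did 4.67% of all genes tested, and cyp-31A2 had 34, 34.6 and 24.1 CPM after the shift, against 46.3, 47.3 and 49.2 CPM at 20 °C. Germline and oocyte markers were negative in 12 of 12 cases, 4 of them without overlap, with sums of 2850 to 11620 CPM after the shift and 9242 to 14480 CPM at 20 °C. Neuron markers were higher without overlap in 5 of 8 cases, with sums of 95.2 to 255 CPM after the shift and 83.2 to 102.4 CPM at 20 °C. None of these markers was at 0 in either group, and their part in the P450 values was not tested. cyp-37B1, with 0.384, 23.5 and 220 CPM after the shift, spanned the 20 °C values, and its log2 fold change of 3.49 (SE 2.29) was the highest of the naming list, which reached down to -1.34 for cyp-35A5 (SE 0.81). This comparison shares its shifted sums with the preceding one and its 20 °C sums with the first.

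Butanone conditioning, set against naive worms, asks what odour training changes, and it gave no called P450 gene. Averaged over the 3 temperatures, 0 of 66 tested members and 0% of 14864 genes passed edgeR's test, and 1 member had an unadjusted p under 0.05, where 0.215% of all genes did. That fit compared group means without pairing by letter. The spread between letters therefore entered the unadjusted p and SE given in this paragraph, which makes small training differences hard to see. Within 20 °C, 15 °C and the shift there were likewise 0 calls, with 1, 0 and 0 members at an unadjusted p under 0.05, where 0.404%, 0.114% and 0.0471% of all genes were. DESeq2 and the fit with the letter as a block also gave 0 calls. The member with the low p was cyp-33C6, with 3, 0 and 6 counts in conditioned worms at 20 °C and 0, 0 and 0 counts in naive worms at 20 °C, too few to give a fold. The naming list ran from -0.23 for cyp-29A3 (SE 0.53) to 0.75 for cyp-14A3 (SE 1.06) in the mean of temperatures.

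**Figure D5:**
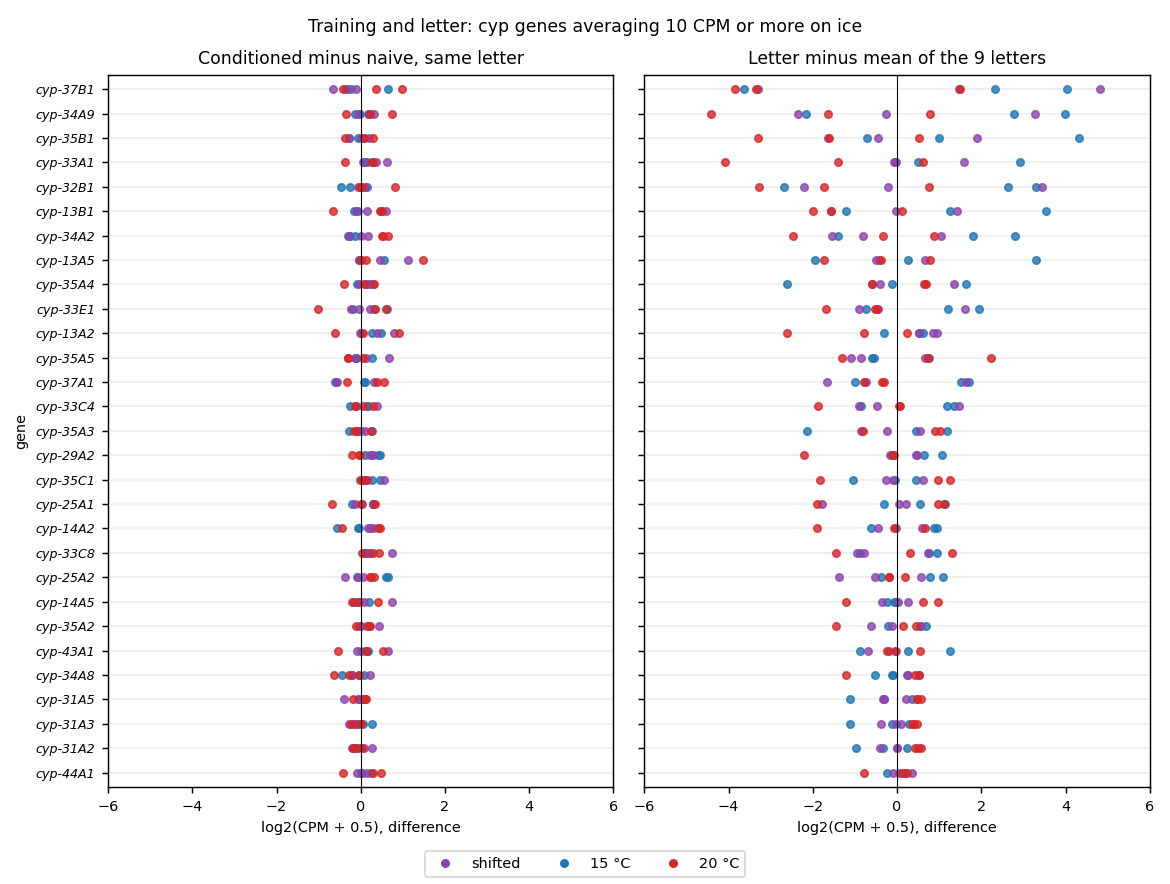
Differences on the log2(CPM + 0.5) scale for the 29 cyp genes that averaged 10 CPM or more on ice: conditioned minus naive within each of the 9 pairs of letter and temperature (left), and each pair's mean minus the mean over the 9 pairs (right), coloured by temperature. The right points therefore include differences between temperatures. The left points stay within 1.47 of 0, while the right points of a gene span 1.14 to 8.65.

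For the 29 members that averaged 10 CPM or more, the median size of the conditioned-to-naive difference within a letter was 0.189 on the log2(CPM + 0.5) scale, and the largest was 1.47. The range of the same genes over the 9 pairs of letter and temperature had a median of 3.32 on that scale, and for 29 of the 29 genes it exceeded that gene's own largest within-letter difference. This range includes differences between temperatures as well as between letters. For cyp-34A9 the letters of a single temperature were far apart and the pairs close. At 15 °C it had 933.8, 14.32 and 427.4 CPM in conditioned worms of letters B, G and H, against 1032, 12.76 and 433.6 CPM in naive worms of the same letters. cyp-35A2 had 926.5, 1669 and 1845 CPM in conditioned worms at 15 °C, against 919.3, 1462 and 1608 CPM in naive worms at 15 °C. In groups rather than pairs, 0 tested members were higher without overlap at 20 °C, at 15 °C or after the shift, where 1.02%, 0.753% and 0.915% of all genes tested were. Lower without overlap were 1 member at 20 °C (cyp-42A1), 0 at 15 °C and 1 after the shift (cyp-25A4), where 0.646%, 1.18% and 1.02% of all genes tested were. Only cyp-33C8 was higher in conditioned worms in 9 of 9 pairs, by 0.031 to 0.747, and no member was lower in all 9. It was picked after its values were seen, and its differences are a description without a test.

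A list of 32 other genes, written with earlier results of these data known, held partners of P450 enzymes along with regulators and lipid genes. Of the 32, 31 matched a symbol and 30 were tested in the lithium experiment. Because the list was made in this way, its counts are a description and no test of the P450 system. At 15 °C on plain agar 7 of the 30 were lower than at 20 °C and 0 higher, where 7.77% of all genes tested were called lower and 2.19% higher. As given above, calls over all genes in this comparison fall to 0 without replicate 2 or without replicate 3 of plain 15 °C. They were ceeh-1 (log2 fold change -1.42, SE 0.28) and ceeh-2 (-1.55, SE 0.32), the epoxide hydrolases that open the epoxides P450 enzymes make, the fatty acid desaturases fat-1 (-0.90, SE 0.17) and fat-3 (-1.06, SE 0.26), the nuclear receptors nhr-8 (-1.53, SE 0.29) and nhr-176 (-1.28, SE 0.30), and the transcription factor pqm-1 (-1.11, SE 0.29), with adjusted p of 0.027 to 0.04 by edgeR. The P450 reductase emb-8, which serves the microsomal enzymes, had -0.42 (SE 0.19, adjusted p = 0.12 by edgeR). daf-9, a P450 gene of the dafachronic acid hormone pathway whose name lies outside the cyp rule, had -1.28 (SE 0.45, adjusted p = 0.071 by edgeR). With lithium at 20 °C 2 of the 30 were lower, fat-3 (-0.99, SE 0.26) and dsc-4 (-0.77, SE 0.23), a share near the 6.33% of all genes tested that were called lower. There emb-8 had -0.11 (SE 0.19, adjusted p = 0.72 by edgeR). None of the list was called in the other comparisons of temperature or lithium.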

How the data were processed

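Both experiments are polyA RNA-seq of whole N2 worms. The authors deposited raw counts per gene. Per the submitters' processing notes, cutadapt, FastQC, HISAT2, HTSeq and DESeq2 were used with build ce11, with no versions, and counting modes are not given in the sources used here. Ice libraries came from SMART-Seq HT or v4 cDNA, and which kit served which library is not stated, so kit and letter cannot be told apart. Gene symbols and positions came from the reference annotation of the same build, and no sequences were at hand.

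From the counts, edgeR 4.0.16 in R 4.3.3 (filterByExpr, TMM, robust quasi-likelihood test, adjusted p under 0.05 over all genes tested) was fitted to 12 lithium libraries in 4 groups, 9 ice sums in 3 groups and 18 ice libraries in 6 groups. An SE is the log2 fold change divided by the square root of F. Named were called members, a list of 25 genes and the 5 highest per kilobase in each experiment. Members, lists and rules were chosen with earlier results of these data known. DESeq2 1.42.0, other scaling, no filter, blocks and left-out libraries were alternatives. Scripts were tested on simulated data.

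No column was left unused, no pair of columns was identical, and the lowest chi-square per degree of freedom between replicates was 23.3. Conditioned and naive libraries of a letter deviated together (correlation 0.471 to 0.897 in 9 of 9 pairs, with the own letter the best match for 18 of 18 libraries), so the letter pairs them. Same-numbered libraries also deviated together between lithium and plain agar at 15 °C (correlations 0.244, 0.252 and 0.166) and between 15 °C and 20 °C under lithium (0.246, 0.195 and 0.265), where a block on the number left 0 members called. The labels do not say that replicates are separate cultures for the lithium experiment, so its p-values measure the spread between these samples, which may be technical. Library totals limit the precision of low counts, and intervals cover counting error only.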

Additional observations from a re-analysis of the deposited data

How the results depend on the processing

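Called values kept their sign under the alternatives run. Lithium at 20 °C gave 6 called members and 15 °C against 20 °C on plain agar 12, against 9 and 17 with DESeq2, 6 and 11 with median-of-ratios scaling, 5 and 8 with no count filter, and 0 to 9 and 0 to 18 with each library left out in turn. Alternatives chosen after seeing the data gave 0 and 0 when only the compared groups were fitted, and 0 and 0 with replicate 2 of every group left out, where fewer libraries estimate the spread. Lithium at 15 °C gave 1 with DESeq2 and 1 with only the compared groups, and 15 °C against 20 °C under lithium gave 1 with DESeq2, against 0 each. With no count filter, the ice comparisons of 15 °C with 20 °C, shift with 15 °C and shift with 20 °C gave 8, 1 and 4 calls, and the last gave 2 with 18 libraries in 6 groups, against 0 each. The cause was not tested. Apart from left-out libraries, the share of all genes called under each alternative of this section is not given here. Those counts therefore describe the members alone and cannot be set against a background. Leaving out any ice library or letter gave 0 called members. With the replicate number as a replicate block, the counts for lithium at 20 °C and for 15 °C against 20 °C on plain agar were 8 and 15, and the others 0. Same-numbered libraries correlated at -0.235, -0.093 and 0.341 in the first of these comparisons and at 0.027, 0.346 and 0.141 in the second, so the numbers were not taken to pair them, although 13 of all 18 same-numbered pairs were above 0.1 and the own number was the best match for 7 of 12 libraries. Under that block cyp-35C1 was called lower at 15 °C on plain agar (-0.99, adjusted p = 0.045 by edgeR), and cyp-35A3, at -0.68, was not (SE 0.34, adjusted p = 0.15). The letter block changed no training call from 0. No paired analysis was possible because shifted, 15 °C and 20 °C sums share at most letter H. Depth limits members such as cyp-37B1 and cyp-13A3, with under 5 counts in each plain 15 °C library.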
